A study of Mus musculus with 6 samples.

Results

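The genes described here are the voltage-gated sodium and calcium channel genes of the mouse, chosen by symbol: every gene named Scn with a number and a or b, and every gene whose name begins with Cacna, Cacnb or Cacng, antisense symbols left out. The rule found 40 of the 32285 genes counted, namely 10 sodium channel alpha subunits, 4 sodium channel beta subunits, 10 calcium channel alpha1 subunits, 4 alpha2-delta subunits, 4 calcium channel beta subunits and 8 gamma subunits. They were counted by droplet single-cell RNA sequencing in 6 libraries from 5 autonomic ganglia of pups at postnatal day 5, of both sexes. All animals carried a Cre transgene and a Cre-dependent tdTomato reporter at the Rosa locus, and the libraries differ in ganglion and not in genotype or treatment. The stellate, sphenopalatine and first pelvic libraries were made in a first round with version 2 chemistry, and the coeliac, lumbar and second pelvic libraries in a second round with version 3 chemistry. The pelvic ganglion alone has 2 libraries, and the labels do not give the number of pups behind a library.

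Voltage-gated sodium channels carry the rising phase of the action potential: an alpha subunit forms the pore and senses voltage, and beta subunits modulate gating and bind neighbouring proteins. In voltage-gated calcium channels an alpha1 subunit forms the pore, the alpha2-delta and beta subunits control its trafficking to the membrane and its gating, and most gamma subunits are better known as transmembrane partners of AMPA-type glutamate receptors. In postganglionic autonomic neurons these channels set excitability and admit the calcium that releases transmitter.

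After the filters of the study, 21442 cells were retained, of which 237 to 2724 per library were neurons and 574 to 2899 glial cells. The 4 neuronal marker genes summed to between 11002 and 16173 counts per 1000000 UMIs (CPM, the UMIs being unique molecular identifiers that each tag 1 captured transcript) in the neurons and to between 391 and 2443 CPM in the glial cells, and the 8 glial markers to between 8679 and 13372 CPM in glial cells and between 33.6 and 168 CPM in neurons. Genes of the noradrenergic phenotype summed to 4906, 3772 and 3136 CPM in stellate, coeliac and lumbar neurons, and those of the cholinergic phenotype to 3372 CPM in sphenopalatine neurons. In pelvic neurons the noradrenergic genes summed to 443 and 322 CPM and the cholinergic genes to 2033 and 3573 CPM. Neurons were sequenced to a median of 26651 to 108598 UMIs, glial cells to 3522 to 12151. The 3 libraries of the first round shared 20 to 49 retained cell barcodes pairwise, the others 4 at most. Levels below are CPM over the summed neurons of a library. A UMI stands for a molecule and not for a length of RNA, so levels were not divided by gene length, and capture may still differ between genes.

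Of the 40 members, 25 reached 10 CPM in the neurons of at least 1 library and 16 did so in all 6, whereas 6 peaked between 1 and 10 CPM and 9 stayed below 1 CPM. Scn9a (Nav1.7, the pore-forming subunit known from nociceptors and sympathetic neurons) was counted at 119 CPM in stellate, 225 in coeliac, 197 in lumbar, 146 in sphenopalatine, 101 in the first pelvic and 159 in the second pelvic library. Scn3a (Nav1.3, prominent in immature neurons) was at 101, 198, 159, 106, 159 and 193 CPM in the same order, so that both genes were lowest in libraries of the first round. Scn2a ranged from 44.6 to 78.2 CPM and Scn8a, the Nav1.6 of mature nodes and initial segments, from 16.4 to 24.0 CPM. Over the 6 libraries Scn8a averaged 20.8 ± 3.14 CPM (SD, n = 6) and Scn3a 153 ± 41.4 CPM.

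Scn1a and Scn7a were lower. Scn1a ranged from 4.47 CPM in stellate to 14.6 CPM in the second pelvic library, with 6.08 CPM in the first pelvic library. Scn7a (Nax, an atypical, sodium-sensing relative) was at 16.2 and 16.5 CPM in the pelvic libraries and between 3.15 and 6.01 CPM in the other 4. Scn10a, the Nav1.8 of nociceptors, peaked at 1.85 CPM in lumbar and Scn11a, the Nav1.9 of nociceptors, at 3.38 CPM in sphenopalatine. Scn4a, the skeletal muscle channel, was at 0.027 CPM at most. The genes Scn3a, Scn2a, Scn1a, Scn9a and Scn7a lie in this order within chr2:65457118-66784914 (GRCm38).

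Among the sodium channel beta subunits, Scn3b was at 196 CPM in stellate, 230 in coeliac, 184 in lumbar, 96.6 in sphenopalatine, 182 in the first pelvic and 126 in the second pelvic library. Scn2b ran from 29.5 CPM in lumbar to 75.3 CPM in sphenopalatine. Scn4b did not exceed 0.066 CPM.

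Of the calcium channel pores, Cacna1b (Cav2.2, the N-type channel of sympathetic terminals) varied least, with 102 ± 11.2 CPM (SD, n = 6). Cacna1a (Cav2.1, the P/Q-type channel) lay between 28.7 CPM in stellate and 64.5 CPM in the second pelvic library. Cacna1e (Cav2.3, R-type) was at 38.1 and 43.7 CPM in the pelvic libraries and 36.3 CPM in coeliac, and at 23.9, 14.7 and 13.3 CPM in stellate, lumbar and sphenopalatine. The L-type genes were lower: Cacna1c (Cav1.2) was between 3.63 and 18.9 CPM, and Cacna1d (Cav1.3) between 4.56 and 7.5 CPM in the first round but between 19.0 and 24.3 CPM in the second, with no overlap of the rounds. The T-type genes Cacna1g, Cacna1h and Cacna1i did not exceed 2.10 CPM in the neurons of any library. Cacna1f, of the retina, reached 0.027 CPM, and no UMI of Cacna1s, of skeletal muscle, was counted, which allows 0.038 CPM in stellate and 0.167 CPM in coeliac, the libraries with most and fewest UMIs from neurons.

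The auxiliary calcium channel genes were represented by Cacna2d1 at 120 ± 23.7 CPM, Cacna2d2 at 35.1 ± 11.2 CPM and Cacna2d3 at 15.5 ± 8.27 CPM (SD, n = 6), whereas Cacna2d4 peaked at 0.24 CPM. Cacna2d3 was at 23.4, 26.6 and 17.5 CPM in stellate, coeliac and lumbar and between 7.54 and 9.83 CPM in the other 3 libraries. Among the beta subunits, Cacnb3 was at 133 ± 25.5 CPM, Cacnb1 at 33.4 ± 7.05 CPM and Cacnb4 at 16.1 ± 3.00 CPM, and Cacnb2 did not pass 1.95 CPM.

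Several gamma subunits varied widely among ganglia. Cacng3 was at 97.8 CPM in stellate, 54.2 in coeliac, 47.1 in lumbar and 50.3 in sphenopalatine, and at 18.0 and 8.78 CPM in the pelvic libraries. Cacng5 was at 0.93 CPM in sphenopalatine, 8.91 in stellate and 10.5 in lumbar, and at 25.5 in coeliac and 25.9 and 22.3 in pelvic neurons. Cacng4 ran from 30.8 CPM in the first pelvic library to 96.5 CPM in coeliac, Cacng2 from 15.4 CPM in sphenopalatine to 54.5 CPM in lumbar, and Cacng7 from 8.06 to 20.7 CPM. Cacng8 stayed between 2.01 and 5.06 CPM, Cacng1 at or below 0.39 CPM, and no UMI of Cacng6 was counted, with the same limits as for Cacna1s. An antisense or lncRNA gene overlaps Cacng2, Cacng4, Cacng8, Scn3a, Scn9a and several other members on the opposite strand in GENCODE M21, and the counts of these pairs rest on the strand setting of the counting.

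**Figure D1:**
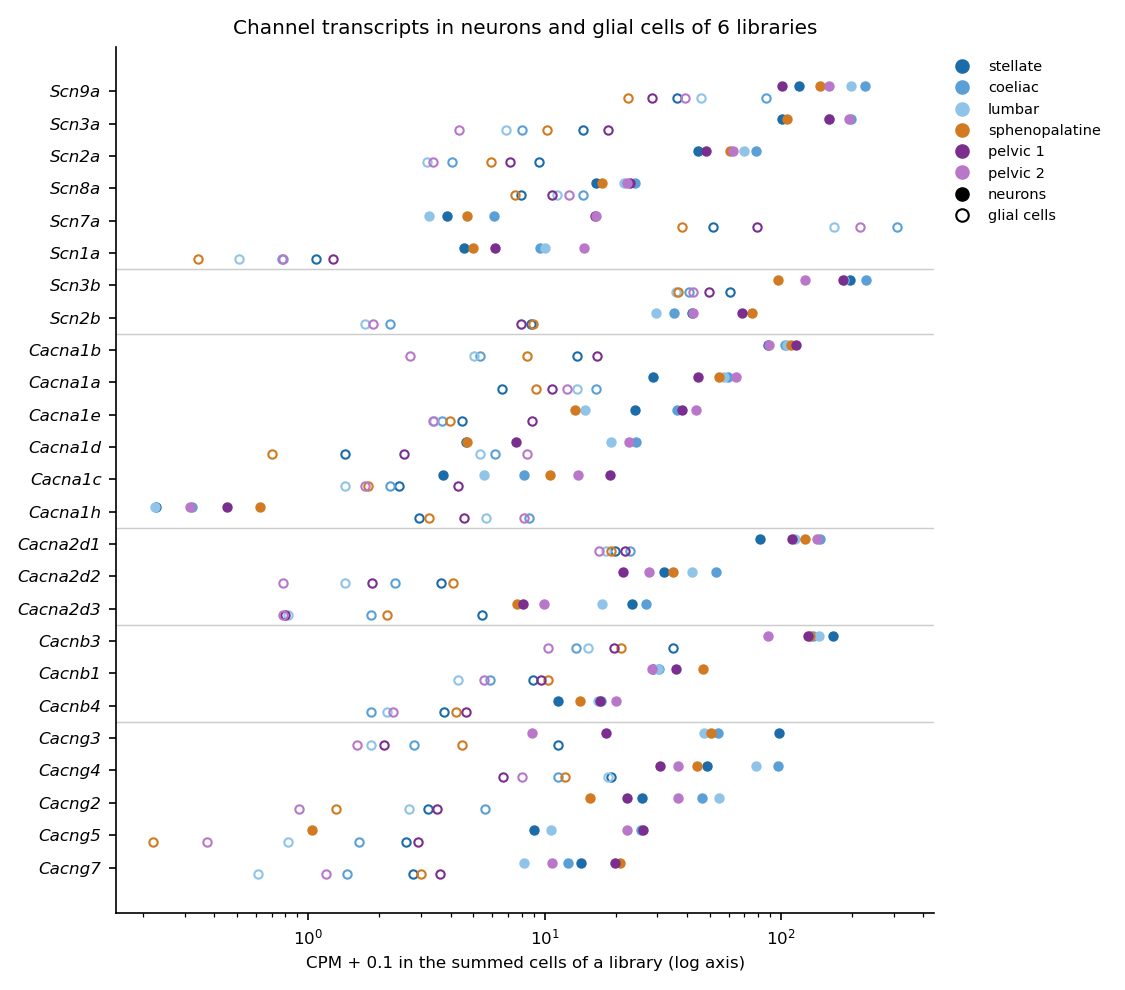
Level of members that reached 10 CPM in neurons or 5 CPM in glial cells, as CPM + 0.1 on a log axis, in the summed neurons (filled) and glial cells (open) of each of the 6 libraries (colour), with grey lines between subunit families. The filled points lie to the right of the open ones for most members, while Scn7a and Cacna1h show the opposite order.

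Neurons were first set against glial cells in the 6 libraries, with the library as a block. Of 28 members that passed the filter on low counts, 26 were higher in neurons and 2 higher in glial cells at an adjusted p under 0.05, against 37.8% and 37.4% of all 14019 genes tested in these directions and 75.2% in either. The 12 members that were not tested had too few counts in either class, so that the 28 are those with appreciable levels and not a sample of all members. Any gene could pass the filter through 1 class alone, which favours a call towards that class. The median log2 difference of the 28 was 2.82, and that of all genes tested 0.01. The largest differences among the sodium channel genes were those of Scn3a, at 4.04 ± 0.40 (log2, SE; adjusted p = 3.6e-05), and Scn2a, at 3.62 ± 0.34 (adjusted p = 2.9e-05). Cacna2d2, at 4.10 ± 0.33, and Cacna1b, at 3.86 ± 0.35, led the calcium channel genes, and the 6 gamma subunits tested lay between 2.23 for Cacng4 and 3.70 for Cacng2. Scn8a had the smallest neuronal excess, 1.08 ± 0.10 (adjusted p = 2.7e-05).

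Scn7a alone of the sodium channel genes tested was higher in glial cells than in neurons. Its level in glial cells was 51.6 CPM in stellate, 309 in coeliac, 168 in lumbar, 37.9 in sphenopalatine and 78.7 and 216 CPM in the first and second pelvic libraries. Every glial value of Scn7a lay above every neuronal value of Scn7a, with a log2 difference of -3.91 ± 0.52 between neurons and glial cells (adjusted p = 0.00019). Scn3b, which was higher in neurons, was at 60.5 CPM in stellate glial cells and 196 CPM in stellate neurons. After glial cells were thinned to 2000 UMIs, a UMI of Scn7a was found in 8.48% to 38.1% of them, and it was found in 1.01% to 6.05% of neurons thinned to 4000 UMIs. Cacna1h (Cav3.2, T-type) was the other member higher in glial cells. It was between 2.84 and 8.50 CPM there and between 0.12 and 0.53 CPM in neurons, a log2 difference of -4.24 ± 0.42 (adjusted p = 3.6e-05). Fibroblast markers moved with this comparison, at 1414 to 4570 CPM in glial cells and 46.5 to 175 CPM in neurons. Scn7a was at 6.13 to 28.03 CPM in fibroblasts, below the glial level of the same library in all 6, whereas Cacna1h was at 6.95 to 17.5 CPM in fibroblasts and thus above the glial level in 5 of 6 libraries. In clusters 5, 11 and 14 of the second pelvic library, named mural cells, Cacna1h was at 8.94, 24.4 and 55.6 CPM, on 18, 15 and 25 UMIs. Mural markers were also higher in glial cells than in neurons, at 282 against 16.2 CPM in that library and 73.6 against 24.2 CPM in the first pelvic one. The part of fibroblast or mural RNA in the glial level of Cacna1h was not tested.

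The neuronal excess differed between the rounds for 7 of the 28 members, all with the larger excess in the second round, against 8.6% of all genes in this direction, 2.74% in the other and 11.3% in either. The widest was that of Scn3a, with a difference of 1.83 ± 0.28 on the log2 scale (SE, adjusted p = 0.020). With neurons selected on log counts edgeR called 0 of the 28 members, and with simulated doublets left out 2 of 27, where 5.09% and 6.78% of all genes were called. In the edgeR fit on log-count neurons, 11 members had an unadjusted p under 0.05, 9 of them with the larger excess in the second round and the others with the smaller. These counts are given without the share of all genes and not read as an excess.

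**Figure D2:**
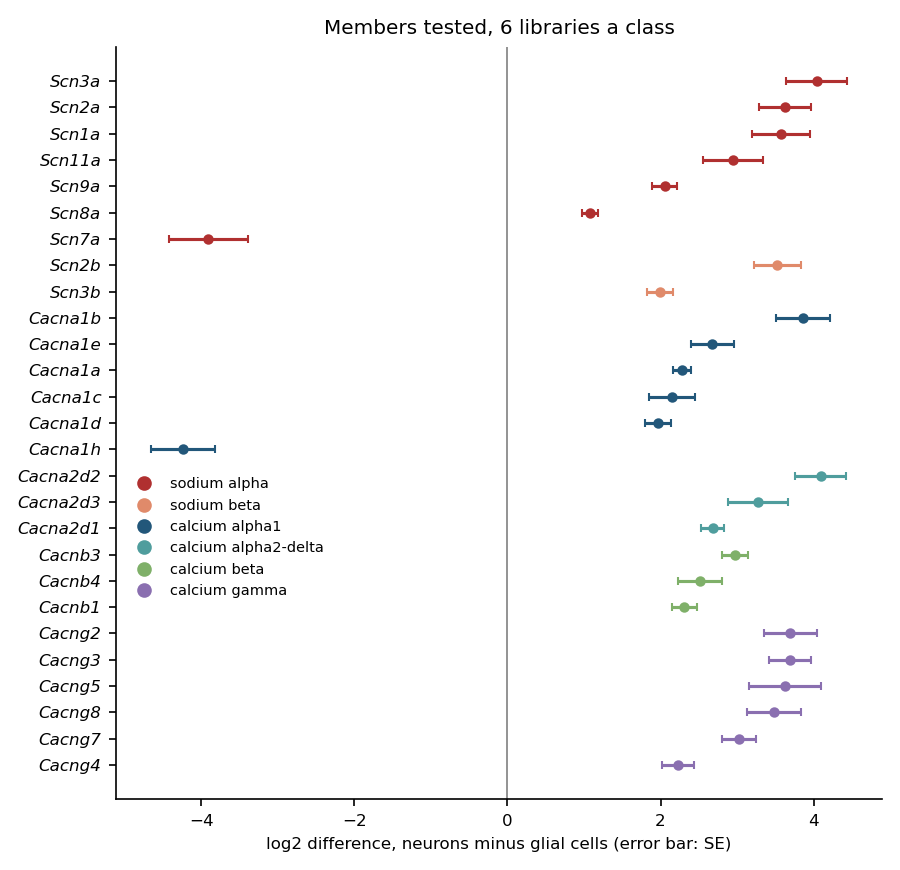
Log2 difference between the summed neurons and glial cells (x axis, neurons minus glial cells, edgeR with the library as a block) of members tested, coloured by subunit family, with the SE as error bars. The neuronal genes lie between 1.08 and 4.10, and Scn7a and Cacna1h lie at -3.91 and -4.24.

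Transmitter genes of the neurons, which were not used to select cells, were also counted in glial cells. The source of these counts was not tested. The summed level of 10 such genes in glial cells was 18.8% of the neuronal level in stellate, 15.4% in sphenopalatine and 12.7% in the first pelvic library, and 6.46%, 4.73% and 3.84% in coeliac, lumbar and the second pelvic library. Scn3a and Cacna2d2 were at or below these percentages in all 6 libraries, with glial levels of 2.19% to 14.2% and 2.48% to 11.4% of the neuronal ones. Above them in every library were 11 members, a count given without the share of all genes and not read as an excess. These included Scn9a, at 38.1% in coeliac and 15.5% to 30.6% in the other 5 libraries, Scn8a, at 42.6% to 59.9%, Scn3b, at 17.7% to 37.9%, and Cacna1a, at 16.6% to 27.5%, beside Scn7a and Cacna1h. Scn9a was found in 4.27% to 12.2% of glial cells thinned to 2000 UMIs and Scn8a was at 7.38 to 14.4 CPM in glial cells.

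Some members were higher in other cell classes of the ganglia than in neurons. Cacna1g (Cav3.1, T-type) was at 3.72 to 16.5 CPM in fibroblasts, against at most 0.91 CPM in neurons and 0.82 CPM in glial cells. In mural cells, which are contractile, Cacna1c was at 19.8 to 45.1 CPM and Cacnb2, its auxiliary beta subunit in muscle, at 3.85 to 30.04 CPM, whereas fibroblasts had 1.32 CPM of Cacnb2 at most. Cacna2d1, by contrast, was at 44.4 to 75.1 CPM in mural cells and at 24.9 to 46.3 CPM in fibroblasts, below the 81.1 to 146 CPM of neurons. Of the 171 mural cells of the second pelvic library, 95 formed a cluster whose leading genes were Sult1e1, Rspo3 and C1qtnf3 and no mural marker, and in which 4 mural and 3 fibroblast markers were found. Without that cluster, an alternative chosen after seeing the data, mural cells of this library had 35.7 CPM of Cacna1c in place of 19.8 CPM, 30.03 CPM of Cacnb2 in place of 17.9 CPM, 86.3 CPM of Cacna2d1 in place of 65.0 CPM and 8.45 CPM of Cacna1g in place of 23.4 CPM. These classes held 26 to 845 cells per library, so that several of these values rest on few UMIs, for example 2 UMIs of Cacnb2 in sphenopalatine mural cells. They were not tested.

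**Figure D3:**
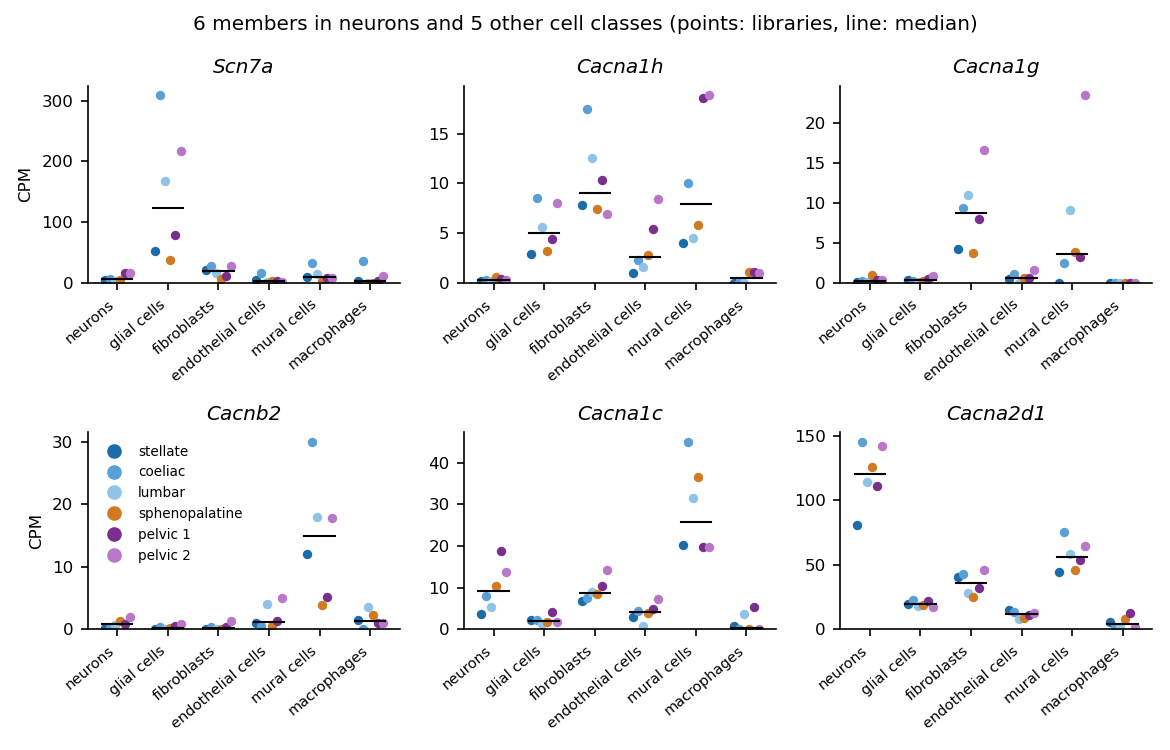
CPM of 6 members (panels) in the summed neurons, glial cells, fibroblasts, endothelial cells, mural cells and macrophages of each library (points, coloured by library), with the median of the 6 libraries as a line. Scn7a is highest in glial cells, Cacna1g lies above the neuronal and glial levels in fibroblasts, and Cacna1c and Cacnb2 are highest in mural cells by the median. The mural point of the second pelvic library includes the cluster led by no mural marker.

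Ganglia were then compared within a round, where chemistry and sequencing were shared. With 1 library for most ganglia no test was made between ganglia, and a member was counted where its CPM differed by at least 2-fold with the higher level at 10 CPM or more. Intervals cover counting error only. Between stellate and sphenopalatine 4 of 21 members at that level differed, against 10.4% of all such genes. Stellate and the first pelvic library differed in 6 of 23 members (10.2% of all genes), and sphenopalatine and the first pelvic library in 4 of 22 (7.51%). In the second round, lumbar and coeliac differed in 2 of 22 members (2.01%), lumbar and the second pelvic library in 7 of 25 (9.52%), and coeliac and the second pelvic library in 5 of 25 (9.36%). The 2 pelvic libraries, made in different rounds, differed in 3 of 24 members (5.37%): Cacna1d was 3.03-fold and Scn1a 2.41-fold higher in the second, and Cacng3 2.05-fold higher in the first. Round and animals cannot be told apart in this last comparison.

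Cacng3 was lower in the summed pelvic neurons than in the other libraries of the same round, at 5.44-fold more in stellate than in the first pelvic library, 5.36-fold more in lumbar and 6.17-fold more in coeliac than in the second pelvic library, and 2.80-fold more in sphenopalatine than in the first pelvic library. Scn7a was 4.30-fold higher in the first pelvic library than in stellate and 5.23-fold and 2.74-fold higher in the second than in lumbar and coeliac. Glial markers in the neurons moved with it, at 168 and 116 CPM in the first and second pelvic libraries against 93.9 CPM in stellate, 35.4 CPM in lumbar and 33.6 CPM in coeliac, though sphenopalatine neurons had 155 CPM of them and 4.60 CPM of Scn7a. Their part in the level of Scn7a was not tested. Both pelvic sums mix clusters described below, so neither level holds for all pelvic neurons. Cacng3 averaged 48.3 CPM in P3-like and 0.40 CPM in P4-like neurons. Scn7a averaged 101 CPM in P4-like neurons and 5.37, 11.8 and 9.73 CPM in P1-, P2- and P3-like neurons.

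Cacng5 was 27.8-fold higher in the summed neurons of the first pelvic library (21.8 to 35.8) than in sphenopalatine neurons, the parasympathetic ones. This low level was not particular to them. The pelvic sum mixes clusters described below, of which P4-like neurons averaged 1.11 CPM and P3-like neurons 90.8 CPM, against 0.93 CPM in sphenopalatine. Cacna2d3 was 3.10-fold higher in stellate than in sphenopalatine. Among sympathetic ganglia of the second round, Cacna1e and Cacng5 were 2.46-fold and 2.43-fold higher in coeliac than in lumbar.

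Within the pelvic ganglion 1258 neurons formed 7 clusters when the members themselves were left out of the clustering. Named by markers that the study chose on these libraries, 5 clusters were P1-like (2 clusters), P2-like, P3-like or P4-like, and 173 neurons in 2 clusters led by glial, fibroblast or haemoglobin genes stayed unnamed. The P3-like cluster was the noradrenergic one, with noradrenergic genes at 2580 and 2520 CPM in the 2 libraries and cholinergic genes at 99.5 and 68.9 CPM, whereas in the P1-, P2- and P4-like clusters noradrenergic genes were at 45.2 to 108 CPM and cholinergic genes at 924 to 5735 CPM. The P3-like cluster was set against the mean of the other 3 in 8 sums of 4 clusters in 2 libraries, with the library as a block. Since no source says that these came from separate litters, the p-values measure the spread between these sums alone. All clusters were formed on other genes of the same cells. Members that vary with those genes can therefore differ between clusters by construction, and the p-values do not account for this.

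Of 30 members tested, 5 were higher in P3-like neurons and 10 lower, against 12.9% and 12.5% of all 13157 genes tested and 25.3% in either direction. The 10 members not tested had too few counts, and any gene could pass the filter through 1 cluster alone, which favours a call towards that cluster. All 15 had the same sign within each of the 2 libraries, but they were called on these same libraries, so this is no separate support. The gamma subunits made the widest differences. Cacng5 was at 93.1 CPM in P3-like neurons of the first library and 88.6 CPM in those of the second, against 14.8 and 15.7 CPM in P1-like, 14.5 and 18.5 CPM in P2-like and 1.60 and 0.62 CPM in P4-like neurons. The log2 difference was 3.79 ± 0.15 (SE, adjusted p = 3.2e-14). Cacng3 was at 63.2 and 33.5 CPM in P3-like neurons, at 14.4 and 7.13 CPM in P1-like, 7.5 and 6.18 CPM in P2-like and 0.80 and 0 CPM in P4-like neurons, a log2 difference of 3.97 ± 0.21 (adjusted p = 2.5e-12). The P4-like levels rest on 2 and 0 UMIs, and the 0 allows up to 0.94 CPM, so that the fitted difference depends on how low counts are treated.

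Cacng2, also called stargazin, went the opposite way. It was at 1.75 and 1.06 CPM in P3-like neurons, on 9 and 4 UMIs, against 24.8 and 34.7 CPM in P1-like, 23.7 and 34.1 CPM in P2-like and 44.9 and 88.5 CPM in P4-like neurons. No P3-like value came near those of the other clusters, and the log2 difference was -4.69 ± 0.28 (adjusted p = 2.3e-11). Cacna1e was at 8.75 and 10.9 CPM in P3-like neurons and at 29.2 to 74.8 CPM in the others, a log2 difference of -2.38 ± 0.16 (adjusted p = 1.5e-10).

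The remaining calls were smaller. Cacng4 (log2 difference 0.99 ± 0.14), Cacng8 (0.87 ± 0.27) and Cacnb3 (0.77 ± 0.10) were higher in P3-like neurons. Cacnb3 was at 207 and 126 CPM there and at 62.8 to 144 CPM elsewhere, so its levels overlap unless each library is read on its own. The Cacng4 levels of P3-like neurons, 33.8 and 43.6 CPM, did not stand above the 39.4 and 43.0 CPM of P1-like neurons in both libraries but were above those of P2- and P4-like neurons. Cacna2d3, Cacna1c, Scn7a, Cacnb4, Cacna1a and Scn2b were lower than the mean of the other 3 clusters. Their log2 differences ran from -1.60 ± 0.39 for Cacna2d3 to -0.36 ± 0.12 for Scn2b. Scn2b averaged 45.1 ± 11.5 CPM in P3-like and 45.9 ± 11.9 CPM in P1-like neurons (SD, n = 2). Cacnb4 averaged 12.2 ± 5.38 CPM in P3-like, 14.7 ± 1.34 CPM in P1-like and 37.0 CPM in P4-like neurons. Cacna2d3 was high in P2-like neurons alone, at 25.8 CPM against 1.59 CPM in P3-like and 1.54 CPM in P4-like neurons. By these means Cacna1c and Cacna1a lay below each of the other clusters. The call for Cacna2d3 was lost without simulated doublets, where the log2 difference was -1.09, and with neurons thinned to 4000 UMIs. Scn7a was lower against the mean of the 3 clusters but higher than in P1-like neurons, at 8.55 and 10.9 CPM. Cacnb2 was also called lower, on 2 and 1 UMIs in P3-like neurons. No difference was called for Scn9a (0.19 ± 0.10), Scn3a (-0.04 ± 0.11), Cacna1b (-0.02 ± 0.11) or Cacna2d1 (-0.19 ± 0.11).

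**Figure D4:**
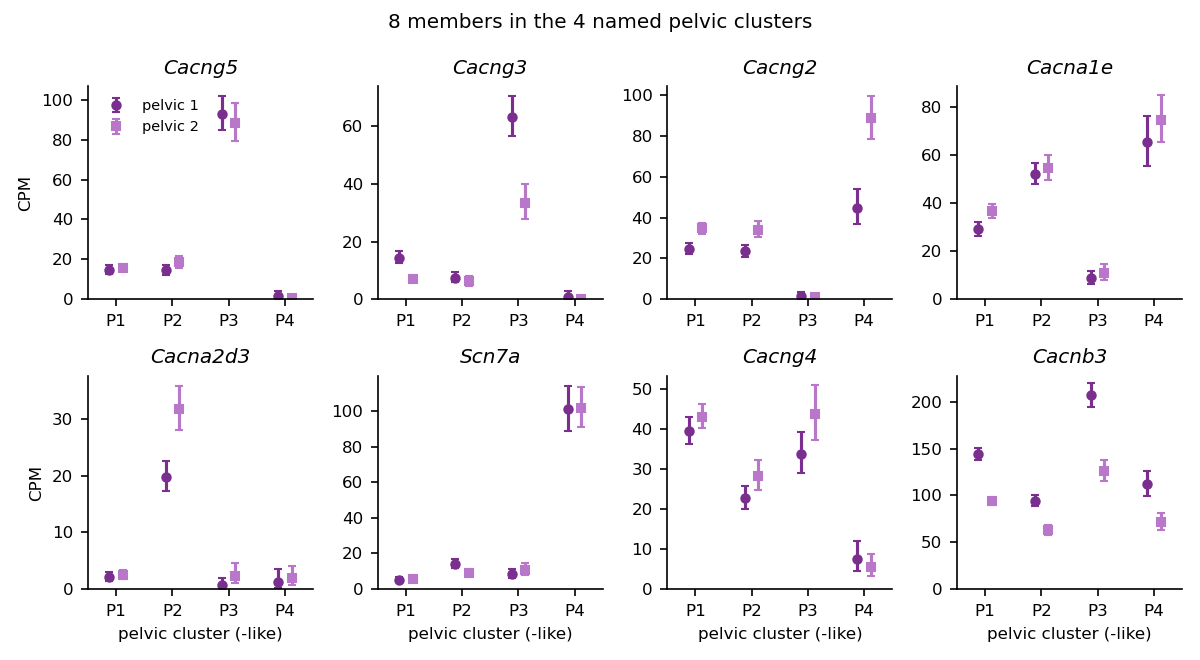
CPM of 8 members (panels) in the P1-, P2-, P3- and P4-like clusters of the first (circles) and second (squares) pelvic library, with 95% Poisson counting intervals. Cacng5 and Cacng3 are highest and Cacng2 and Cacna1e lowest in P3-like neurons, Cacna2d3 is highest in P2-like and Scn7a in P4-like neurons, and Cacng4 is lowest in P4-like neurons.

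Among the cholinergic-like clusters, 23 of the 30 members tested differed between P1-, P2- and P4-like neurons by an F test of the same fit, against 33.3% of all genes. The adjusted p-values of this comparison are those of the joint test, and no pair of clusters was tested on its own. The P4-like cluster stood out by Scn7a, at 101 and 102 CPM against 5.27 and 5.48 CPM in P1-like and 14.3 and 9.26 CPM in P2-like neurons. The log2 difference from P1-like neurons was 4.13 (adjusted p = 3.5e-13 by the joint test). A UMI of Scn7a was found in 90.0% and 96.8% of P4-like neurons, and in 35.6% and 36.7% after thinning to 4000 UMIs. Glial markers were also higher in this cluster, at 441 and 414 CPM in P4-like neurons against 19.8 to 75.0 CPM in the other 3 clusters and 8679 and 9081 CPM in pelvic glial cells. P4-like neurons held 22.9 and 24.6 UMIs of Scn7a per 100 UMIs of the 8 glial markers, whereas glial cells of these libraries held 0.91 and 2.38 and the other 3 clusters 11.4 to 46.7. Without simulated doublets Scn7a was at 100.3 and 99.1 CPM in P4-like neurons, with glial markers at 394 and 267 CPM. The part of glial RNA in the Scn7a level of P4-like neurons was not tested.

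P4-like neurons also had more Cacnb2, at 4.81 and 9.66 CPM against 0.38 to 2.49 CPM in P1- and P2-like neurons (log2 difference 3.57 from P1-like, adjusted p = 6.5e-06 over the 3 clusters). They also had more Cacng2 (1.05 from P1-like, adjusted p = 2.0e-05 over the 3 clusters) and Cacnb4 (1.24 from P1-like, adjusted p = 4.6e-05 over the 3 clusters). Cacna1i, a T-type pore, was at 2.81 and 2.49 CPM in P4-like neurons and 0.21 CPM at most in the other 3 clusters. The joint test over P1-, P2- and P4-like neurons, which leaves out P3-like neurons, gave an adjusted p of 0.0010. Between P3-like neurons and the mean of the other 3 clusters Cacna1i was not called (log2 difference -4.62 ± 2.31, adjusted p = 0.16 by edgeR). No UMI of Cacna1i was found in P4-like neurons after thinning, so its level there rests on few UMIs. Cacng5, Cacng3 and Cacng4 were lower in P4-like than in P1-like neurons. For Cacng5 the P4-like levels rest on 4 and 2 UMIs. For Cacng4, with a log2 difference of -2.76 from P1-like neurons (adjusted p = 6.4e-09 over the 3 clusters), the levels were 7.61 and 5.61 CPM against 39.4 and 43.0 CPM in P1-like and 22.7 and 28.3 CPM in P2-like neurons.

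P2-like neurons were marked by Cacna2d3, at 19.8 and 31.8 CPM against 2.06 and 2.5 CPM in P1-like and 1.20 and 1.87 CPM in P4-like neurons. The log2 difference from P1-like neurons was 3.49 (adjusted p = 2.0e-11 by the joint test over P1-, P2- and P4-like neurons). Its level in P3-like neurons, 0.78 and 2.39 CPM, was as low. Scn11a was at 3.70 and 4.75 CPM in P2-like neurons and at 0.80 to 1.60 CPM in P1- and P4-like neurons (adjusted p = 0.00046 by the same joint test). It was less particular to P2-like neurons, with 2.74 ± 1.40 CPM (SD, n = 2) in P3-like neurons, which the joint test leaves out. In the P1-like cluster led by Cartpt and Areg it was at 2.18 and 2.52 CPM. The 2 P1-like clusters, formed like the others on genes of the same cells, differed in turn, without a test: Cacng3 was at 24.2 and 12.04 CPM in the cluster led by Cartpt and Areg and at 1.91 and 0.62 CPM in that led by Penk and Gng8, and Cacng5 was at 8.58 and 11.1 CPM against 22.8 and 21.8 CPM.

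The levels of noradrenergic pelvic neurons are set beside those of sympathetic neurons, and the differences between them were not tested. Stellate neurons outside the cholinergic-like clusters had 26.0 CPM of Cacng2, coeliac neurons 46.2 CPM and lumbar neurons outside the cholinergic-like cluster 53.6 CPM, and P3-like neurons 1.75 and 1.06 CPM. For Cacng5 the order was inverted, with 8.04, 25.5 and 10.3 CPM in these sympathetic neurons and 93.1 and 88.6 CPM in P3-like neurons. Cacng3 levels overlapped only across rounds, and within a round they were lower in P3-like neurons. In the first round they were 63.2 CPM in P3-like and 98.1 CPM in stellate neurons. In the second they were 33.5 CPM in P3-like, 54.2 CPM in coeliac and 47.9 CPM in lumbar neurons. Cacna2d3 was at 24.1, 26.6 and 16.9 CPM in sympathetic neurons and, as given above, at 2.39 CPM or less in P3-like neurons.

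**Figure D5:**
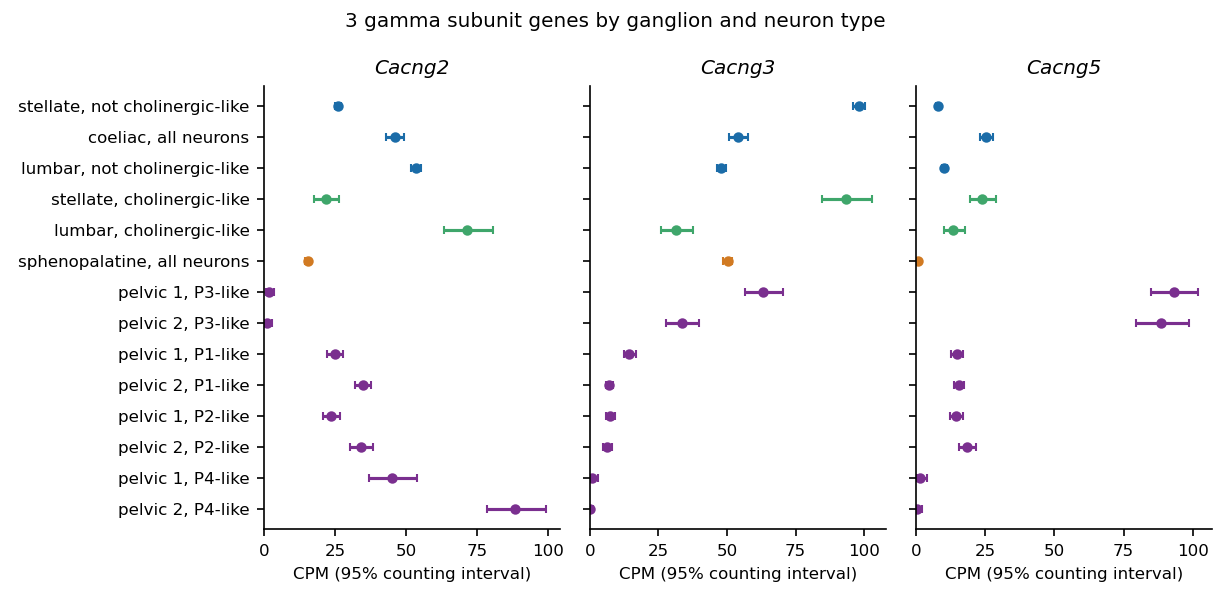
CPM of Cacng2, Cacng3 and Cacng5 (panels) in sympathetic neurons (blue), their cholinergic-like clusters (green), sphenopalatine neurons (orange) and the pelvic clusters of each library (purple), with 95% Poisson counting intervals. P3-like neurons hold 1.75 and 1.06 CPM of Cacng2 and 93.1 and 88.6 CPM of Cacng5, and sphenopalatine neurons hold 0.93 CPM of Cacng5.

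Cholinergic-like neurons were also named in 2 sympathetic libraries, 227 in stellate and 45 in lumbar, and compared with the other neurons of their library without a test. Scn7a was at 14.3 CPM in cholinergic-like and 3.16 CPM in other stellate neurons, and at 28.5 and 1.76 CPM in lumbar. Scn2b was at 49.9 against 41.4 CPM in stellate and 68.7 against 27.3 CPM in lumbar. Cacna1e ran the other way, with 5.98 CPM in cholinergic-like and 24.9 CPM in other stellate neurons, and 5.06 and 15.3 CPM in lumbar. In the pelvic ganglion it was the noradrenergic cluster that had the lower Cacna1e. Cacna2d3 had no common direction, at 10.6 against 24.1 CPM in stellate and 27.7 against 16.9 CPM in lumbar.

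Partner genes of these channels, chosen from textbook knowledge but with earlier results of these data known, comprised 25 genes, of which 24 were matched. Among them were intracellular FGFs and ankyrins that anchor sodium channels, RGK proteins that inhibit calcium channels, active zone proteins and the subunits of the sodium leak channel. Of 23 tested, 18 were higher in neurons than in glial cells and 2 lower, against the 37.8% and 37.4% given above. Fgf14, which binds the tail of sodium channels, had a log2 difference of 4.10 ± 0.40, and Nalcn, the leak channel pore, 3.95 ± 0.39, with its partners Fam155a at 3.63, Unc79 at 2.83 and Unc80 at 2.43. Ank2, Nfasc and Sptbn4, of the axonal membrane and its skeleton, were at 3.56, 3.39 and 3.19, Cabp1, Rimbp2 and Rims2, which act on calcium channels or tether them at release sites, at 3.58, 3.60 and 2.85, Stac at 3.33 and Rem2 at 3.06. The RGK genes Rem1, at -3.70 ± 0.22, and Rrad, at -2.01 ± 0.33, were higher in glial cells. Between P3-like and other pelvic neurons 15 of 22 tested partners differed, 9 higher and 6 lower (12.9% and 12.5% of all genes). By at least 4-fold these were Rem2, higher by 2.04 ± 0.17 on the log2 scale (adjusted p = 7.7e-09), and Nedd4l, a ubiquitin ligase of sodium channels, with a log2 difference of -2.34 ± 0.17 (adjusted p = 4.6e-10).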

How the data were processed

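Single cells of 5 ganglia were profiled on the 10x platform in 6 libraries. The authors deposited UMI counts per gene and droplet, filtered for cells and made with Cell Ranger 6.0.1 on mm10, per the file headers and the submitters' processing notes. The annotation is not given in the sources used here, and identifiers of all 40 members matched GENCODE M21 (GRCm38). Library totals were 39353313 to 113352559 UMIs. No columns of other samples were present.

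Droplets with 1500 to 11000 genes and under 15% mitochondrial counts were kept. Neurons had a mean sctransform (0.4.2) value of Stmn2, Stmn3, Gap43 and Tubb3 above 3 and a mean of glial markers below 1.15, and glial cells the reverse. Pelvic neurons were clustered (50 components, 20 neighbours, Louvain) after matching the 2 libraries, without the members or mitochondrial genes. A cluster was named from markers that the study had chosen on these libraries. A doublet simulation marked cells with over 50% simulated neighbours among 30, 32 to 597 neurons per library, which were kept in the main results and left out in an alternative.

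Raw counts were summed per library and class or cluster and tested with edgeR 4.0.16 (quasi-likelihood F test, TMM, filterByExpr, library as a block), p-values being adjusted by Benjamini and Hochberg over all genes tested. The block pairs sums that come from the same library. Differences are log2 fold changes with SE taken as the difference over the root of F. DESeq2 1.42.0 was an alternative. CPM carry exact Poisson intervals and shares exact Clopper-Pearson intervals at 95%, and a count of 0 allows 3 counts. Both cover counting error only. The fits were tested on simulated data. Alternatives were other size factors, filters, cell selections, clusterings, depths (4000 UMIs per neuron, 2000 per glial cell) and left-out libraries.

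The members, partner genes and lists were chosen with earlier results of these data known. Members are named with values where they reached 10 CPM in the neurons of a library or in a pelvic cluster or passed a test, and partners where they passed by at least 4-fold. Others are given by their range or as examples of families, chosen after their values were seen. Some members, promoter sequences and details of the mouse line are not reported here, but the members among them stay in the counts. Fam155b was not matched by symbol.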

Additional observations from a re-analysis of the deposited data

Results flagged for a closer look

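The difference between neurons and glial cells was larger in the second round than in the first for 7 of the 28 members tested, and smaller for none, by the interaction of cell class and round in edgeR at an adjusted p under 0.05. Of all genes tested, 8.6% were larger and 2.74% smaller. The calls depended on which neurons were taken: edgeR called 0 of 28 members with neurons selected on log counts and 2 of 27 with simulated doublets left out, where 5.09% and 6.78% of all genes were called. With neurons selected on log counts, 11 members had an unadjusted p under 0.05 by edgeR, 9 of them with the larger excess in the second round and the others with the smaller. These counts are given without the share of all genes and not read as an excess. DESeq2 called 8 members with a larger and 1 with a smaller excess, where 15.9% of all genes were called in either direction. On the log2 scale the differences of the rounds were 1.83 for Scn3a, 1.65 for Cacna2d2, 1.62 for Scn2a, 1.57 for Cacna1b, 1.48 for Scn2b, 1.47 for Cacnb4 and 0.75 for Cacnb3, against a median of 0.10 over all genes. The 4 neuronal markers summed to 1133 to 2443 CPM in glial cells of the first round. In those of the second they summed to 391 to 650 CPM. Counts of neuronal markers in glial cells thus moved with the round, and their part in these values was not tested. Chemistry and ganglia also differ between the rounds and cannot be told apart.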

How the results depend on the processing

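The member calls between neurons and glial cells kept their direction under every alternative in which the member was tested, leave-one-out of each library, single rounds and thinning included. No called member or partner count there moved by over 1.5 times. Thinned to 2000 UMIs, 22 members were tested, of which 21 were called higher in neurons and 1 higher in glial cells. Of 18 partners tested then, 15 were called higher in neurons and 0 higher in glial cells. Without the replicate block the members called in P3-like against other pelvic neurons fell from 15 to 6 and those among the cholinergic-like clusters from 23 to 8, and partners called went from 15 to 4, while the share of all genes called went from 25.3% to 8.2% and from 33.3% to 8.69%. With neurons thinned to 4000 UMIs these counts were 5, 9 and 3, of 22 members tested in place of 30, with 10.4% and 16.2% of all genes called. DESeq2 called 12 and 18 members, with 19% and 23.6% of all genes called. No called member changed sign under any alternative. Cacng5, Cacng3 and Cacng2 differed between P3-like and other pelvic neurons under every alternative in which they were tested. With 1 pelvic library left out there are no residual degrees of freedom, so no test is possible. Calls for Cacnb1 and Scn8a among the cholinergic-like clusters were lost under 8 and 7 of 10 alternatives, and that for Cacna2d3 in P3-like neurons also without simulated doublets. The 7 members whose neuronal excess differed between rounds became 4 without a filter on low counts, 2 without simulated doublets and 0 by edgeR with neurons selected on log counts. The shares of all genes called were then 3.15%, 6.78% and 5.09%. In the last of these fits 11 members had an unadjusted p under 0.05, 9 of them with the larger excess in the second round and the others with the smaller. These counts are given without the share of all genes. DESeq2 called 9 with the neurons of the main selection, where 15.9% of all genes were called. The cause was not tested.

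Counts between ganglia followed the fold. At 1.5-fold they were 11 for stellate against sphenopalatine, 13 for stellate and 9 for sphenopalatine against the first pelvic library, 4 for lumbar against coeliac, 10 for lumbar and 10 for coeliac against the second pelvic library and 7 between the pelvic libraries, where 4.73% (lumbar against coeliac) to 23.9% (between the pelvic libraries) of all genes passed. At 3-fold they were 1 for stellate against sphenopalatine, 4 for stellate and 2 for sphenopalatine against the first pelvic library, 0 for lumbar against coeliac, 2 for lumbar and 1 for coeliac against the second pelvic library and 1 between the pelvic libraries, which was also the count there at a minimum of 20 CPM. Of all genes 0.791% to 6.03% passed 3-fold, and 5.1% passed at 20 CPM between the pelvic libraries. Members with a UMI in at least 10% of neurons, 24 to 28 per library, fell on thinning to 4000 UMIs to 13 in stellate, sphenopalatine and both pelvic libraries, 16 in coeliac and 14 in lumbar, so that shares are limited by depth.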
